A study of Mus musculus with 6 samples.

Results

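The adhesion genes described here are *Vcam1*, *Ncam1*, *Icam1*, *Icam2*, *Pecam1*, *Emilin2* and *Cd44*, which are 7 of the 10528 genes with a tested probe. *Vcam1* and *Ncam1* were selected on their log2 fold changes in these same arrays, which were among the largest of all genes, and the value of *Emilin2* was also known. The values of these 3 genes are therefore given as a description, without a test. The remaining genes, and the lists of genes below, were also chosen with earlier results of these data known. Their p-values come from the fit over all tested probes and take no account of that choice. For each gene every probe annotated to it in the deposited table of log2 values was taken, 17 probes in all. All 17 were detected in at least 1 pool and entered the fit. The study's methods removed undetected probes from its normalized values, so the detection of all 17 is not a result. The label of immunoglobulin-type molecules holds for *Vcam1*, *Ncam1*, *Icam1*, *Icam2* and *Pecam1*. *Emilin2* encodes a secreted matrix glycoprotein of the EMILIN family and *Cd44* encodes the hyaluronan receptor, and neither protein belongs to the immunoglobulin superfamily.

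Gene expression was measured in LSK cells, the lineage-negative Sca-1+ c-Kit+ fraction of bone marrow that contains hematopoietic stem cells and multipotent progenitors. The 3 PU.1-deficient pools came from *Spi1* fl/fl MxCre+ mice and the 3 wild-type pools from *Spi1* +/+ MxCre+ mice, all on the C57BL/6 background, between 6 and 12 weeks of age. *Spi1* encodes the ETS transcription factor PU.1. Mice of both genotypes carried MxCre and received 2 injections of polyIC, 3 days apart at 5 µg/g, and the study's methods give day 14 for the isolation of these cells. Because the Mx promoter responds to interferon, the recombinase is not restricted to LSK cells and can act in other marrow cells, and polyIC itself induces an interferon response in both genotypes. Each pool combined the cells of several mice and went onto 1 Illumina mouse BeadChip array. The p-values therefore weigh a difference against the spread between pools, and the spread between single mice was not measured.

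Immunoglobulin-type adhesion molecules carry extracellular immunoglobulin domains through which a cell binds integrins or another copy of the same molecule on a neighbouring cell. In the marrow they hold stem and progenitor cells to stromal and endothelial cells and take part in the exit of leukocytes through vessel walls. VCAM-1 binds the integrin VLA-4, the ICAM proteins bind β2 integrins such as LFA-1, and NCAM and PECAM-1 bind largely to themselves. CD44 is carried by most hematopoietic cells and binds the matrix polymer hyaluronan.

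Array medians ran from 89.5 to 116.5 intensity units, and 15639 to 18174 of the 45281 probes were detected, that is, had a detection p under 0.05. PU.1-deficient pool 2 had the lowest median and the fewest detected probes. Precision is limited by the number of arrays. All levels below are log2 intensities after background correction and quantile normalization, and all fold changes are PU.1-deficient over wild-type. *Spi1* itself had log2 intensities of 6.63, 5.81 and 6.00 in PU.1-deficient pools 1, 2 and 3, against 8.55, 8.51 and 8.69 in wild-type pools 1, 2 and 3 (log2 fold change -2.44, adjusted p = 0.00112 from *limma*). This is the only probe annotated to *Spi1*, and the study describes its *Spi1* probe as lying in the floxed exon. *Xist*, transcribed from the inactive X chromosome, was above background in all 3 PU.1-deficient pools on each of its 4 probes and, of the wild-type pools, in pool 3 on 1 probe only, the brightest, with a log2 fold change of 5.62 (adjusted p = 0.000157 from *limma*), and the Y-linked gene *Eif2s3y* was detected in all 6 pools. The sex makeup of the pools therefore cannot be told apart from the genotype, and its part in the values below was not tested.

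*Vcam1* (GRCm38.p6 chr3:116110020-116129688) had the largest difference of the 7 genes. Its brightest probe, ILMN_2778655, which is annotated to the RefSeq mRNA, had log2 intensities of 11.27, 10.37 and 11.14 in PU.1-deficient pools 1, 2 and 3, against 5.94, 4.95 and 4.72 in wild-type pools 1, 2 and 3. The groups did not overlap, and 4.43 log2 units separated the lowest PU.1-deficient pool from the highest wild-type pool. The means were 10.93 ± 0.49 in PU.1-deficient pools and 5.20 ± 0.65 in wild-type pools (SD, n = 3 each), a log2 fold change of 5.73 or 53.0-fold. The scanner intensities, before any correction, were 2591.0, 868.7 and 2585.6 in PU.1-deficient pools 1, 2 and 3, against 167.9, 125.6 and 92.5 in wild-type pools 1, 2 and 3. The probe was detected in all PU.1-deficient pools and, of the wild-type pools, in pool 1 only, so the size of this fold change rests in part on background signal. It was 4.05 on the log2 scale without background correction and 4.79 with a larger offset before the log2 step. In bulk samples of this kind, fewer cells that express a gene and less RNA per cell cannot be told apart.

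The other *Vcam1* probes, both annotated to cDNA clones, were higher in PU.1-deficient cells as well, but by much less. ILMN_1232768 had log2 intensities of 7.02, 6.05 and 6.32 in PU.1-deficient pools 1, 2 and 3, against 4.48, 4.49 and 4.74 in wild-type pools 1, 2 and 3. It was undetected in all wild-type pools. Against a wild-type group without a detected value a fold change is only a lower bound, taken here against the lowest detected signal of each array, and for this probe PU.1-deficient cells were at least 2.80-fold higher. ILMN_2552295 had log2 intensities of 6.07, 5.15 and 5.35 in PU.1-deficient pools 1, 2 and 3, against 4.49, 4.39 and 4.41 in wild-type pools 1, 2 and 3. This probe was detected in PU.1-deficient pools 1 and 3 and in no wild-type pool, and was at least 1.46-fold higher. Both bounds depend on the processing. Without background correction the measured log2 fold changes of these probes were 0.75 and 0.44, which as folds lie below the bounds. With the larger offset these log2 fold changes were 1.09 and 0.54, and the first of them is again below its bound. All 3 *Vcam1* probes thus placed every PU.1-deficient pool above every wild-type pool, while their measured log2 fold changes were 5.73, 1.89 and 1.10. The part of the transcript that each probe reads was not examined, and the cause of the disagreement was not tested.

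*Ncam1* (chr9:49502129-49799393), whose product is known best from neurons and marks NK cells in humans, was likewise higher in PU.1-deficient cells on its brightest probe. Its brightest probe, ILMN_1237421, had log2 intensities of 11.06, 9.96 and 10.26 in PU.1-deficient pools 1, 2 and 3, against 6.29, 4.81 and 4.69 in wild-type pools 1, 2 and 3. The means were 10.43 ± 0.57 in PU.1-deficient pools and 5.26 ± 0.89 in wild-type pools (SD, n = 3 each), a log2 fold change of 5.17 or 35.9-fold. The groups did not overlap, and of the wild-type pools only pool 1 was above background. Without background correction the log2 fold change was 3.54, and with the larger offset it was 4.24.

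The other 3 *Ncam1* probes were dim. ILMN_3102825, annotated to the same RefSeq mRNA as the brightest probe, had log2 intensities of 6.68, 4.95 and 5.88 in PU.1-deficient pools 1, 2 and 3, against 5.13, 4.81 and 4.91 in wild-type pools 1, 2 and 3. The groups overlapped, because PU.1-deficient pool 2 lay below wild-type pool 1, and the log2 fold change was 0.88, with detection in PU.1-deficient pools 1 and 3 and in wild-type pool 1. ILMN_1254093 had log2 intensities of 5.88, 4.98 and 6.12 in PU.1-deficient pools 1, 2 and 3, against 4.61, 4.46 and 4.48 in wild-type pools 1, 2 and 3. It was detected in PU.1-deficient pools 1 and 3 and in no wild-type pool, and was at least 1.60-fold higher. ILMN_2722864 had log2 intensities of 5.20, 5.51 and 5.39 in PU.1-deficient pools 1, 2 and 3, against 4.42, 4.52 and 4.44 in wild-type pools 1, 2 and 3, was detected in every PU.1-deficient pool and in no wild-type pool, and was at least 1.31-fold higher. Without background correction the log2 fold changes of ILMN_3102825, ILMN_1254093 and ILMN_2722864 were 0.34, 0.43 and 0.36, and the bounds given for the last 2 of these probes are above what those values amount to as folds. Every *Ncam1* probe was thus detected in at least 2 of 3 PU.1-deficient pools, but the size of the difference from wild-type cells ran from a log2 fold change of 5.17 to one of 0.88 between probes of the same gene.

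**Figure D1:**
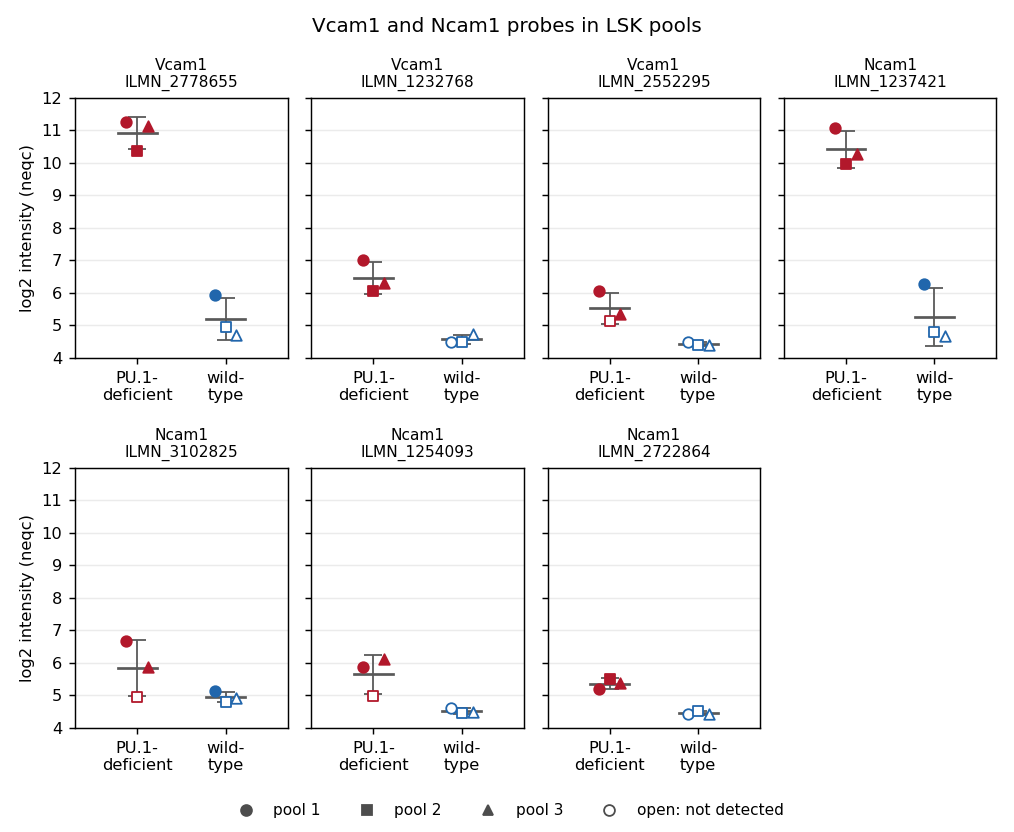
Log2 intensity (vertical axis) of the 3 *Vcam1* and 4 *Ncam1* probes in 3 PU.1-deficient pools (left, red) and 3 wild-type pools (right, blue). Symbols mark the pool number, open symbols a detection p of 0.05 or more, and bars the mean and SD. On the brightest probe of each gene the PU.1-deficient pools sit between 9.96 and 11.27 and the wild-type pools between 4.69 and 6.29.

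The pools of 1 genotype varied in the same order on both bright probes. PU.1-deficient pool 2 had the lowest *Vcam1* and the lowest *Ncam1* level of its group, and wild-type pool 1 had the highest of its group. Wild-type pool 1 was also the highest wild-type pool for the neutrophil granule gene *Ngp* (9.13, against 7.46 and 7.49 in wild-type pools 2 and 3) and for the primary granule protease *Elane* (13.43, against 10.98 and 11.57). The other tested neutrophil markers, described below, were divided. Wild-type pool 1 was the highest for *Lcn2*, *S100a8*, *Retnlg* and *Cxcr2*. Wild-type pool 3 was the highest for *S100a9* (11.45, against 11.26 and 11.20 in wild-type pools 1 and 2), *Camp*, *Cd177*, *Ltf* and *Mpo*. Among the PU.1-deficient pools, pool 2 was the lowest for *Ngp*, *Lcn2*, *Cd177*, *Retnlg* and *Cxcr2*. It was the highest for *Camp*, *S100a8*, *S100a9*, *Elane* and *Mpo*, and lay between the others for *Ltf*. Of the erythroid markers, wild-type pool 1 was the highest of its group for *Car1*, *Car2*, *Klf1*, *Epor* and *Tfrc*. Wild-type pool 2 was the highest for *Hba-a1*. The part of such differences between pools was not tested.

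Among the genes tested, *Pecam1* (chr11:106654213-106715281) rose. PECAM-1 is carried by endothelial cells, platelets and leukocytes and by hematopoietic progenitors, and acts at cell junctions and in leukocyte migration. ILMN_3147074 had log2 intensities of 10.42, 10.87 and 10.50 in PU.1-deficient pools 1, 2 and 3, against 8.05, 8.56 and 8.75 in wild-type pools 1, 2 and 3. The groups did not overlap, and the log2 fold change was 2.14 (95% interval 1.59 to 2.70, standard error 0.24, with adjusted p = 0.00187 from *limma*), or 4.42-fold. ILMN_2700982 had log2 intensities of 10.74, 9.53 and 10.52 in PU.1-deficient pools 1, 2 and 3, against 8.31, 7.50 and 7.91 in wild-type pools 1, 2 and 3, which gave 2.36 on the log2 scale (95% interval 1.53 to 3.19, adjusted p = 0.00667 from *limma*). Both probes put all PU.1-deficient pools above all wild-type pools, but PU.1-deficient pool 2 was the highest of its group on the first and the lowest on the second. The third probe, ILMN_1226690, annotated to a cDNA clone, had log2 intensities of 6.28, 5.99 and 6.27 in PU.1-deficient pools 1, 2 and 3, against 4.67, 4.68 and 4.58 in wild-type pools 1, 2 and 3, where it was undetected, and the bound was at least 2.30-fold (adjusted p = 0.00178 from *limma*). Without background correction its measured log2 fold change was 0.56, against 1.54 with it, and with the larger offset it was 0.85. As folds, 0.56 and 0.85 lie below the bound, which therefore does not hold under every setting. The probe passed the test in each of these cases. The 3 *Pecam1* probes thus gave measured log2 fold changes of 2.14, 2.36 and 1.54.

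*Icam1* (chr9:21015940-21028814) fell. ICAM-1 is the ligand of the β2 integrins LFA-1 and Mac-1 and is induced by inflammatory cytokines on many cell types. Its probe, ILMN_2896601, had log2 intensities of 6.45, 7.27 and 6.89 in PU.1-deficient pools 1, 2 and 3, against 8.30, 8.75 and 8.55 in wild-type pools 1, 2 and 3. Every PU.1-deficient pool lay below every wild-type pool, with a gap of 1.03 log2 units, and the probe was detected in all 6 pools. The log2 fold change was -1.66 (standard error 0.25, 95% interval -2.25 to -1.08, adjusted p = 0.00656 from *limma*), so that the level in PU.1-deficient cells was 0.315 of that in wild-type cells. The scanner intensities were 174.7, 147.3 and 226.4 in PU.1-deficient pools 1, 2 and 3, against 478.7, 669.3 and 376.1 in wild-type pools 1, 2 and 3.

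*Icam2* (chr11:106377656-106388139), which encodes the constitutive LFA-1 ligand of endothelial cells, platelets and leukocytes, did not pass the test. ILMN_2618408 had log2 intensities of 9.93, 10.54 and 9.87 in PU.1-deficient pools 1, 2 and 3, against 10.003, 10.039 and 10.089 in wild-type pools 1, 2 and 3. The groups overlapped, and the log2 fold change was 0.07 (standard error 0.22, 95% interval -0.44 to 0.58, adjusted p = 0.911 from *limma*). Its sign turned with scaling to equal medians (-0.16) and without PU.1-deficient pool 2 (-0.14).

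*Emilin2* (chr17:71252172-71311556), whose product is deposited in the extracellular matrix, was higher in PU.1-deficient cells on both of its probes. ILMN_2981363 had log2 intensities of 11.25, 10.92 and 11.12 in PU.1-deficient pools 1, 2 and 3, against 9.12, 8.70 and 8.88 in wild-type pools 1, 2 and 3. ILMN_2772281 had log2 intensities of 10.60, 10.03 and 10.33 in PU.1-deficient pools 1, 2 and 3, against 8.34, 7.77 and 7.89 in wild-type pools 1, 2 and 3. The groups did not overlap on either probe, the order of the pools was the same on both, and the log2 fold changes were 2.19 (4.57-fold) and 2.32 (4.99-fold). *Emilin2* differed from *Vcam1* and *Ncam1* in that it was detected in every pool of both genotypes.

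*Cd44* (chr2:102811141-102901669) was detected in all pools by 3 probes, and none passed the test. ILMN_1223697 had log2 intensities of 10.26, 9.97 and 10.33 in PU.1-deficient pools 1, 2 and 3, against 10.17, 10.11 and 10.04 in wild-type pools 1, 2 and 3 (log2 fold change 0.08, 95% interval -0.33 to 0.49, adjusted p = 0.869 from *limma*). ILMN_3114585 gave a log2 fold change of -0.23 (95% interval -0.78 to 0.33, adjusted p = 0.666 from *limma*) and ILMN_2474229 one of 0.18 (95% interval -0.39 to 0.75, adjusted p = 0.763 from *limma*). The groups overlapped on each probe, and these intervals leave room for differences of up to 0.78 in size. With scaling to equal medians the signs of the first and the last of these probes turned (-0.17 and -0.18).

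**Figure D2:**
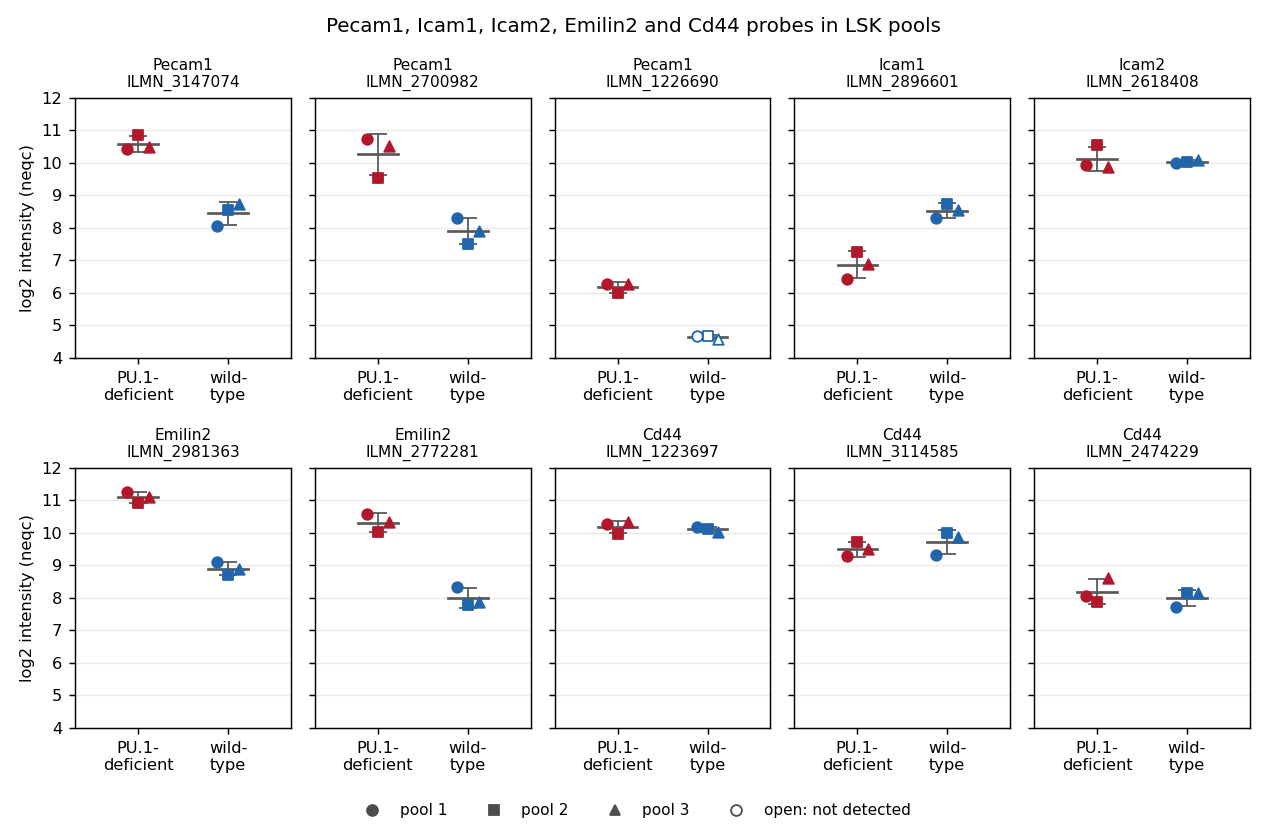
Log2 intensity (vertical axis) of the probes of *Pecam1*, *Icam1*, *Icam2*, *Emilin2* and *Cd44* in 3 PU.1-deficient pools (left, red) and 3 wild-type pools (right, blue), with symbols and bars as for *Vcam1* and *Ncam1*. The groups are apart for *Pecam1* and *Emilin2*, where PU.1-deficient pools are higher, and for *Icam1*, where they are lower, and overlap for *Icam2* and *Cd44*.

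Of the 8 probes of *Icam1*, *Icam2*, *Pecam1* and *Cd44*, 3 were higher and 1 was lower in PU.1-deficient cells, and 4 did not pass. All 3 higher probes were those of *Pecam1*, and the lower one was that of *Icam1*. Probes of the same gene are not separate results, so by gene only *Pecam1* was higher and only *Icam1* lower. Over all 22119 tested probes, 4.89% were higher and 3.91% lower at the same threshold. These 8 calls were the same under each of the 17 alternative settings, with adjusted p-values from *limma* up to 0.0391 for *Icam1* and up to 0.0359 for *Pecam1*. By the brightest probe of each gene, the PU.1-deficient pools lay wholly above the wild-type pools for 4 of the 7 genes, against 16.2% of all 10528 genes, and wholly below for 1, against 18.3%. Since *Vcam1*, *Ncam1* and *Emilin2*, whose values were known, are 3 of those 4, nothing is read from that count. With all probes of a gene averaged, the log2 fold changes were 2.26 for *Emilin2* and 0.01 for *Cd44*. No average is given for *Vcam1*, *Ncam1* and *Pecam1*, each of which has a probe that was undetected in every wild-type pool. The median over all tested probes was -0.05. Levels were not compared between probes, which differ in their binding.

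Promoter sequence was at hand for 3 of the 7 genes, from RefSeq on GRCm38.p6, as windows of 250 bases before to 50 bases after each transcription start. The genes shown are one that fell, one that was higher and one that did not differ beyond the spread of the pools. They were searched on both strands for GAGGAA, the core that PU.1 binds, and for GGAA, the core of ETS factors in general, which GAGGAA contains. Capitals mark GGAA and its reverse complement TTCC.
Icam1, chr9:21015690-21015989, plus strand: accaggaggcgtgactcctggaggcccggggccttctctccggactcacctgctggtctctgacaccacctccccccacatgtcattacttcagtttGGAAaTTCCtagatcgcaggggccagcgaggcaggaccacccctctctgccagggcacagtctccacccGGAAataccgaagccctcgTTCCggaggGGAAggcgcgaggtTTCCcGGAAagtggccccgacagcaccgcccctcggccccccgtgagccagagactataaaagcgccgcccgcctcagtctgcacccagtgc
Emilin2, first start, chr17:71311507-71311806, minus strand: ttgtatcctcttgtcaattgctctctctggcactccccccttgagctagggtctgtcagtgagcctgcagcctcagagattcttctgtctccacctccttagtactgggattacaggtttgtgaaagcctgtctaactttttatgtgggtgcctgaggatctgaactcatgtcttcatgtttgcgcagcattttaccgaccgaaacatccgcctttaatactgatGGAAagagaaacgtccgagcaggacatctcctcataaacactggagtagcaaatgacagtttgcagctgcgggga
Emilin2, second start, chr17:71310962-71311261, minus strand: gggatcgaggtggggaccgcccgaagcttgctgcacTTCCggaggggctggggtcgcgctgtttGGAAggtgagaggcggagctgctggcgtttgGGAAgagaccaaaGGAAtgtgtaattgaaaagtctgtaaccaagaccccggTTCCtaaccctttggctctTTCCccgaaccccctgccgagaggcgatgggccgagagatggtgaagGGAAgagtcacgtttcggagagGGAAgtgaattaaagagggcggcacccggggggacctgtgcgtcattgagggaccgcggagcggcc
Cd44, chr2:102901616-102901915, minus strand: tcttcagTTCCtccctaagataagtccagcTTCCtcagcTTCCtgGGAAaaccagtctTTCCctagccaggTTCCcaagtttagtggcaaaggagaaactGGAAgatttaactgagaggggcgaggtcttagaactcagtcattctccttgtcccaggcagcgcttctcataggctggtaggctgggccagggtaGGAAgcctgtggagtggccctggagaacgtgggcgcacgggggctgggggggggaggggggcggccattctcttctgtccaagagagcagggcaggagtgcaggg

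GAGGAA was found in 0 places in the *Icam1* window and in both *Emilin2* windows, and in 2 places in the *Cd44* window, on the strand opposite to the gene, 243 and 220 bases before the start. The motif occurred in 28.3% of all 32851 promoter windows of this length. GGAA was found 7 times in the *Icam1* window, 1 and 8 times in the *Emilin2* windows, and 8 times in the *Cd44* window, and in 96.0% of all windows. A match of letters is not a binding site, and binding was not measured in these samples.

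To place *Vcam1* and *Ncam1* among all genes, the genes whose brightest probe followed the same course over the 6 pools were ranked by Pearson's r. The 6 values fall into 2 genotypes that lie far apart, so that any gene with a large difference scores high, and r is given as a description only. The genes most like *Vcam1* were *1810055G02Rik* (0.9999), *Lcn2*, which encodes a neutrophil granule lipocalin (0.9987), *Ly6f*, of the Ly6 surface protein family (0.9986), and *Dgat2*, an enzyme of triglyceride synthesis (0.9982). Those most like *Ncam1* were *Fcnb*, which encodes the lectin ficolin B (0.9993), *Gclm*, a subunit of the enzyme that starts glutathione synthesis (0.9987), *S100a11*, a calcium-binding protein (0.9986), and the lysosomal sulfatase *Arsb* (0.9986). *Ncam1* ranked 22 in likeness to *Vcam1* (0.9949) and *Emilin2* ranked 8 (0.9969), whereas *Pecam1* (0.92), *Cd44* (0.43), *Icam2* (0.05) and *Icam1* (-0.98) ranked lower.

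The other adhesion molecules of the immunoglobulin superfamily moved in both directions. Of 36 genes listed, 19 had a tested probe. In PU.1-deficient cells 4 were higher, 4 were lower and 11 did not pass. The median log2 fold change was -0.19, and over all 10528 genes 6.61% were higher and 5.59% lower, shares that hold as the background for each list of genes below. These shares are for an adjusted p under 0.05. The share of all genes at an unadjusted p under 0.05 was not taken. Counts at that threshold below therefore stand without a background, and nothing is read from them. *Cxadr*, which encodes the junctional coxsackievirus and adenovirus receptor, was undetected in every wild-type pool and at least 4.93-fold higher (adjusted p = 0.000614 from *limma*), and *Ceacam1*, a homophilic adhesion molecule of myeloid and epithelial cells, was at least 2.84-fold higher in the same way (adjusted p = 0.00517). Of the 3 tested *Ceacam1* probes, 1 passed. The bounds for *Cxadr* and *Ceacam1* do not hold under every setting. The alternative settings gave log2 fold changes down to 1.20 for *Cxadr* and 0.68 for *Ceacam1*, which as folds lie below them. The other genes that rose were *Thy1* (log2 fold change 0.89, adjusted p = 0.0494) and *Sirpa*, the receptor for CD47 (0.76, adjusted p = 0.0374). Those that fell were *Esam* (-2.29, adjusted p = 0.0289) and *F11r* (-1.62, adjusted p = 0.0206), junctional molecules of endothelial and stem cells, *Icam4* of the erythroid lineage (-1.81, adjusted p = 0.0482) and *Slamf1*, the stem cell marker CD150, which was undetected in every PU.1-deficient pool and at least 1.35-fold lower (adjusted p = 0.0316). *Cxadr* and *Ceacam1* passed whichever pool was left out. *Thy1* (adjusted p 0.0669 to 0.153), *Sirpa* (0.0739 to 0.145) and *Slamf1* (0.0505 to 0.116) did not pass whichever of the 6 pools was left out, *Icam4* did not pass without PU.1-deficient pool 1 or 3 or any wild-type pool (0.056 to 0.169), *F11r* without any of PU.1-deficient pools 1 and 2 and wild-type pools 2 and 3 (0.0549 to 0.0922), and *Esam* without PU.1-deficient pool 2 or wild-type pool 2 or 3 (0.0527 to 0.119). With scaling to equal medians *Thy1*, *Sirpa* and *Slamf1* did not pass.

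Of 16 surface partners of the adhesion molecules, 10 had a tested probe, and 2 were higher and 0 lower in PU.1-deficient cells by *limma* (median log2 fold change -0.13, with 4 higher and 2 lower at an unadjusted p under 0.05). Without PU.1-deficient pool 2, 1 was lower, and without wild-type pool 1, 2 were. *Itga4* and *Itgb1*, the subunits of the VCAM-1 receptor VLA-4, had log2 fold changes of -0.28 (adjusted p = 0.659 from *limma*) and -0.08 (adjusted p = 0.917). *Cd177*, a neutrophil surface protein that binds PECAM-1, rose with log2 intensities of 11.46, 10.91 and 11.26 in PU.1-deficient pools 1, 2 and 3, against 6.20, 5.91 and 6.35 in wild-type pools 1, 2 and 3 (log2 fold change 5.06, adjusted p = 4.58e-05 from *limma*). *Itgb2*, the β2 chain of the ICAM-1 receptors, rose by a log2 fold change of 1.97 (adjusted p = 0.0302), with *Itgal*, the LFA-1 α chain, at 1.36 (adjusted p = 0.138). The call of *Itgb2* was lost on equal-median scaling (adjusted p = 0.142) and on leaving out any of PU.1-deficient pools 1 and 3 and wild-type pools 2 and 3 (adjusted p 0.107 to 0.124 from *limma*). The ligand *Icam1* and its receptor chain *Itgb2* thus went in opposite directions, while the ligand *Vcam1* was higher beside receptor chains that did not pass the test.

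Cytoplasmic partners, which tie adhesion molecules to actin or signal below them, had 11 tested genes of 16, of which 2 were higher and 1 lower (median log2 fold change -0.04). *Vcl*, encoding vinculin (0.73, adjusted p = 0.0347 from *limma*), and *Rac2*, the hematopoietic Rac GTPase (0.82, adjusted p = 0.0366), rose, and *Ptpn6*, encoding the phosphatase SHP-1 that docks on the PECAM-1 tail, fell (-0.82, adjusted p = 0.0299). Of the 2 tested *Ptpn6* probes, 1 passed. *Vcl* (adjusted p = 0.408) and *Rac2* (0.32) did not pass with scaling to equal medians or without any 1 pool other than PU.1-deficient pool 2 (adjusted p 0.0558 to 0.166 from *limma*), and *Ptpn6* did not without any of PU.1-deficient pools 1 and 3 and wild-type pools 2 and 3 (0.116 to 0.137).

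In the hyaluronan and CD44 pathway, 8 of 17 genes had a tested probe, with 2 higher and 1 lower in PU.1-deficient cells (median log2 fold change 0.14). *Srgn*, the granule proteoglycan serglycin, which CD44 can bind, had log2 intensities of 13.04, 12.64 and 12.99 in PU.1-deficient pools 1, 2 and 3, against 11.89, 11.75 and 11.96 in wild-type pools 1, 2 and 3 (log2 fold change 1.03, adjusted p = 0.0135 from *limma*). Of its 2 tested probes, 1 passed. *Cemip2*, a cell surface protein linked to hyaluronan breakdown, rose by 1.53 (adjusted p = 0.0229). *Mmp14*, a membrane protease that cleaves CD44, was undetected in every PU.1-deficient pool and at least 3.10-fold lower (adjusted p = 0.00466), and passed whichever pool was left out, with 2 genes of this list lower without PU.1-deficient pool 2. The bound for *Mmp14* does not hold under every setting, since its smallest log2 fold change among the alternative settings was -0.93, a smaller difference. *Srgn* (adjusted p 0.0606 to 0.0702) and *Cemip2* (0.0599 to 0.103) did not pass without any of PU.1-deficient pools 1 and 3 and wild-type pools 2 and 3, or with scaling to equal medians (0.0914 and 0.174, all from *limma*). The relatives of *Emilin2* gave 0 calls by *limma* in 3 tested genes of 5, and 2 were lower at an unadjusted p under 0.05, with *Emilin1* at 0.36 (adjusted p = 0.474) and *Mmrn1*, encoding multimerin of platelets and stem cells, at -1.29 (adjusted p = 0.113, *limma*).

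Among enzymes that shed or glycosylate the adhesion molecules, 10 of 12 genes were tested, and 4 were higher and 1 lower (median log2 fold change 0.35). The neutrophil proteases *Elane* (2.63, adjusted p = 0.0283 from *limma*) and *Ctsg* (1.94, adjusted p = 0.0239), which are known to cleave VCAM-1 in the marrow, rose, as did *Prtn3* (1.42, adjusted p = 0.0281) and the secretase *Bace1* (1.23, adjusted p = 0.00922). *Adam15*, a membrane metalloprotease, fell on its brightest probe (-1.92, adjusted p = 0.0125), the only 1 of its 4 tested probes that passed. *St8sia4*, which adds polysialic acid to NCAM, was at -0.23 (adjusted p = 0.573). All 5 calls were lost without wild-type pool 3 (adjusted p 0.0567 to 0.118 from *limma*), and all but that of *Bace1* also without PU.1-deficient pool 3 (0.0565 to 0.0924). *Elane* and *Prtn3* in addition did not pass without any of PU.1-deficient pools 1 and 2 and wild-type pool 2, *Ctsg* without PU.1-deficient pool 1 or 2, and *Adam15* without wild-type pool 2 (0.0555 to 0.102). With scaling to equal medians *Bace1* (adjusted p = 0.0786) and *Prtn3* (adjusted p = 0.058) did not pass.

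NF-κB and interferon response factors, which are known to act on the *Vcam1* and *Icam1* promoters in endothelial cells, had 13 tested genes of 16, with 1 higher and 0 lower by *limma*, a count near the 6.61% and 5.59% of all genes (median log2 fold change 0.02, with 2 higher and 1 lower at an unadjusted p under 0.05). Without PU.1-deficient pool 2, 2 were higher, and without wild-type pool 1, 2 were lower. The gene that rose was *Tnfrsf1b*, encoding a TNF receptor (2.10, adjusted p = 0.000484 from *limma*). Of its 2 tested probes, 1 passed. *Rela* was at -0.09 (adjusted p = 0.873), *Irf1* at 0.02 (adjusted p = 0.972) and the NF-κB inhibitor *Nfkbia* at 0.74 (adjusted p = 0.0921).

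**Figure D3:**
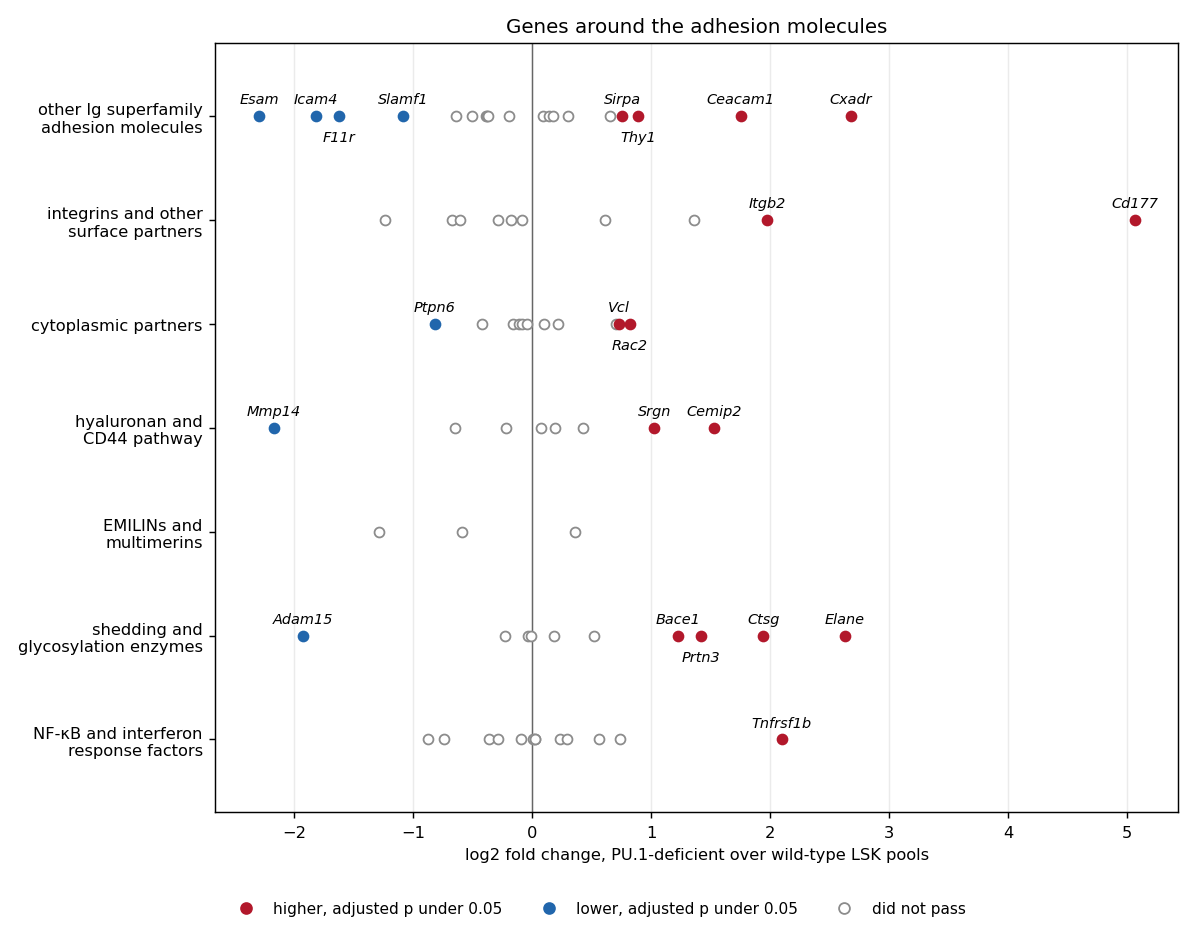
Log2 fold change, PU.1-deficient over wild-type (horizontal axis), of each tested gene in 7 lists of related genes, by the brightest probe of the gene, with 3 pools per genotype. Filled points passed an adjusted p under 0.05 and carry their names. *Cd177* (5.06) stands farthest to the right, and the other immunoglobulin superfamily molecules spread from -2.29 (*Esam*) to 2.68 (*Cxadr*).

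Several cell types of the marrow carry these molecules, and their markers were read beside them. Markers of endothelial cells, which carry VCAM-1, ICAM-1, ICAM-2 and PECAM-1, were not higher in PU.1-deficient cells. Of 6 tested genes of 12, 0 were higher and 4 lower by *limma* (0 and 5 at an unadjusted p under 0.05, for which no share of all genes was taken), and their summed signal ran from 1387 to 2531 in PU.1-deficient pools, against 3132 to 5048 in wild-type pools. The endothelial genes that fell were *Emcn* (-2.26, adjusted p = 0.00312 from *limma*), *Robo4* (-2.15, adjusted p = 0.0323), *Tie1* (-1.31, adjusted p = 0.0163) and *Plvap* (undetected in all PU.1-deficient pools), some of which stem cells also express. Of the 2 tested *Robo4* probes, 1 passed. *Robo4* did not pass without any of PU.1-deficient pools 1 and 2 and wild-type pools 2 and 3 (adjusted p 0.0624 to 0.129 from *limma*), nor *Tie1* without PU.1-deficient pool 1 or wild-type pool 2 or 3 (0.0511 to 0.0649). The tested macrophage markers, of a cell type rich in VCAM-1, were at or near background. Of 12, 3 were tested, with *Adgre1* at background in every PU.1-deficient pool, and a summed signal of 91.1 to 138.0 in PU.1-deficient pools, against 138.3 to 181.1 in wild-type pools. Stromal markers had 4 tested genes of 12, with 1 higher (*Pdgfrb*, 1.16) and 1 lower (*Bgn*, -2.03), a summed signal of 498.8 to 730.3 in PU.1-deficient pools, against 306.6 to 725.5 in wild-type pools, and the niche chemokine *Cxcl12* was detected in 1 pool of each genotype. *Pdgfrb* (adjusted p = 0.049 from *limma*) did not pass whichever pool was left out (0.0641 to 0.119), nor did *Bgn* (adjusted p = 0.0397) except without wild-type pool 1 (0.0548 to 0.152). *Adgre1* (adjusted p = 0.0136) did not pass without PU.1-deficient pool 1 or wild-type pool 2 or 3 (0.0522 to 0.0773, *limma*), and 2 macrophage markers were lower without wild-type pool 1.

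Markers of neutrophils and their precursors moved with the adhesion genes that were higher. Of 11 tested genes of 12, 8 were higher and 0 lower by *limma* (8 and 0 at an unadjusted p under 0.05), with *Ngp* at 5.51, *Camp* at 4.54 and *Lcn2* at 4.01, and the summed signal ran from 119600 to 132600 in PU.1-deficient pools, against 26240 to 39960 in wild-type pools. By their brightest probes *Mpo*, *Ltf* and *Cxcr2* did not pass, although 1 of the 4 tested *Mpo* probes did. *Cxcr2*, a receptor of mature neutrophils, was detected in 1 pool of each genotype. For NK and innate lymphoid cells, which carry NCAM in humans, 1 of 6 tested genes of 12 was higher and 0 lower by *limma*, with the same counts at an unadjusted p under 0.05. The gene that rose was *Nkg7* (1.73, adjusted p = 0.0016 from *limma*). The NK receptor genes *Klrb1c* and *Klrd1* and the cytokine receptor chain *Il2rb* were near background in both genotypes, whereas *Prf1*, encoding perforin (log2 fold change -0.43, adjusted p = 0.597), and *Gata3* (0.04, adjusted p = 0.965, *limma*) were detected in all 6 pools. All 6 tested megakaryocyte markers, of a lineage that carries PECAM-1, were lower (3 without any of PU.1-deficient pools 1 and 3 and wild-type pools 2 and 3), with a summed signal of 870.8 to 1540 in PU.1-deficient pools, against 6169 to 6719 in wild-type pools. Erythroid markers had 0 higher and 4 lower of 6 tested by *limma*, and the same counts at an unadjusted p under 0.05 (summed signal 1323 to 2410 in PU.1-deficient pools, against 3225 to 9882 in wild-type pools). Of 7 genes expressed in LSK cells or used to divide them, 5 had a tested probe, and 0 were higher and 1 was lower by *limma* (0 and 5 at an unadjusted p under 0.05, for which no share of all genes was taken). *Kit*, which encodes the c-Kit of the gate, was detected in all pools (log2 fold change -0.44, adjusted p = 0.221 from *limma*). *Ly6a*, which encodes Sca-1, had no tested probe under its name, which does not show that it was undetected. *Cd34*, which divides LSK cells into subsets, fell (-1.66, adjusted p = 0.00336, *limma*). *Flt3* (-1.21, adjusted p = 0.0621), *Ptprc* (-0.98, adjusted p = 0.0587) and *Cd48* (-0.64, adjusted p = 0.119, *limma*) did not pass. Every PU.1-deficient pool lay below every wild-type pool for each, as it did for 18.3% of all 10528 genes. This list had a summed signal of 4784 to 5608 in PU.1-deficient pools, against 7523 to 8861 in wild-type pools. Without wild-type pool 1, 3 LSK markers were lower. The part of any of these cell types in the values of the adhesion genes was not tested.

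**Figure D4:**
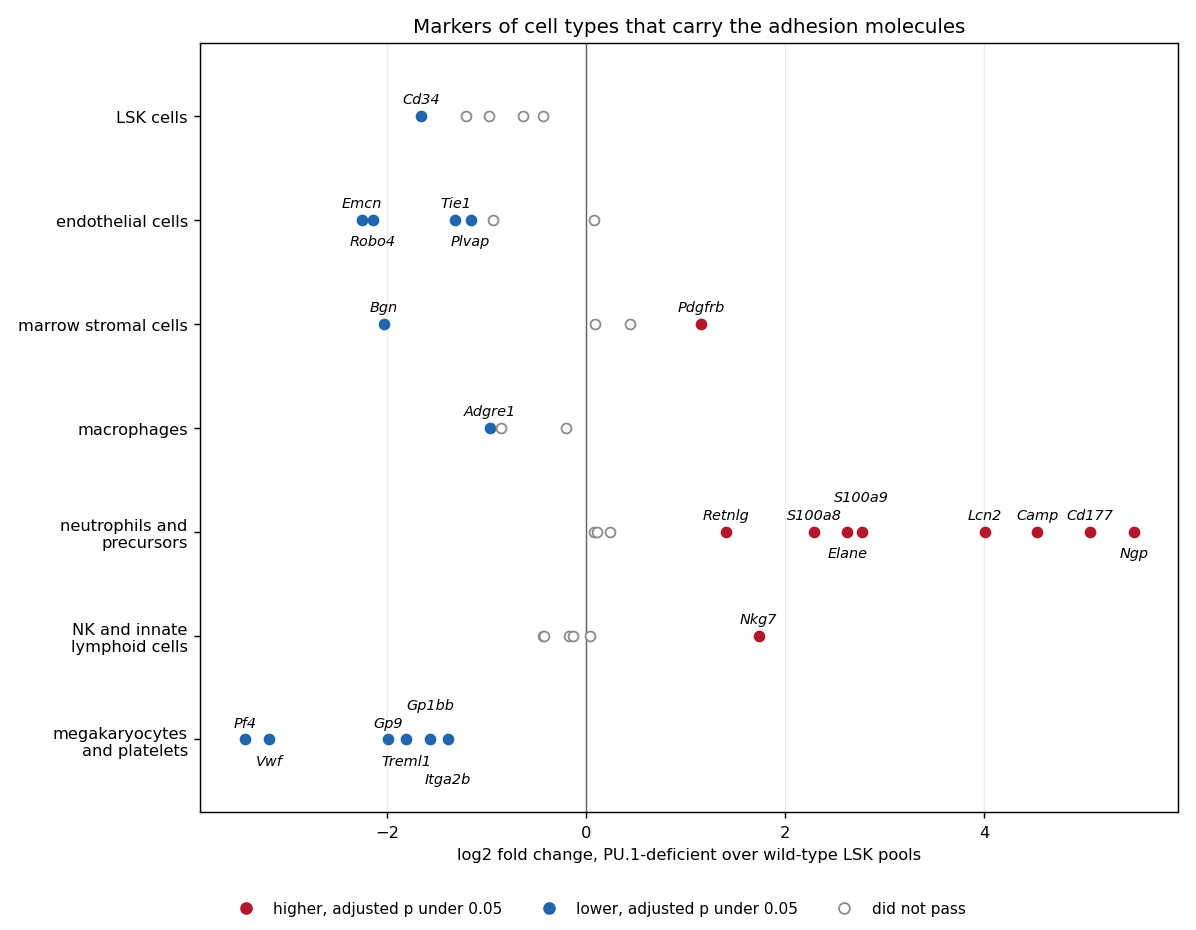
Log2 fold change, PU.1-deficient over wild-type (horizontal axis), of each tested marker of 7 cell types, by the brightest probe of the gene, with 3 pools per genotype and filled, named points for an adjusted p under 0.05. The neutrophil markers that passed lie to the right, up to 5.51 for *Ngp*, and the megakaryocyte and endothelial markers that passed lie to the left.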

How the data were processed

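RNA of 3 PU.1-deficient and 3 wild-type pools of sorted LSK cells was hybridized to Illumina BeadChips, 1 array per pool. The authors deposited probe intensities that are not normalized, with a detection p-value for each, and a table of log2 values, for which the study's methods name neqc (*limma*). In the deposited intensity table the headings of intensity and detection p-value columns are exchanged within each pair, and the columns were read by their values. Scanner settings and the genome build of the probes are not given in the sources used here.

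The intensities of all 45281 probes were normalized again with neqc in *limma* 3.58.1 (R 4.3.3), which took the background level from the detection p-values, added an offset of 16 and applied quantile normalization. The result differed from the 19750 deposited log2 values by at most 0.0255. Probes detected on 1 array or more (detection p-value under 0.05), 22119 in all, entered lmFit and eBayes, two-sided, with Benjamini-Hochberg adjustment over all of them and a threshold of 0.05. The platform annotation gave a single gene name to 16494 tested probes, for 10528 genes, and 5625 tested probes had no single name. A gene counted as without a tested probe may therefore lack a named probe rather than signal. A gene with several probes was read by its brightest tested probe, except for the adhesion genes, of which every annotated probe in the deposited log2 table is given. The fit was tested on simulated data. Intervals are 95% intervals of the fit.

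The adhesion genes and the lists of related genes and cell type markers were chosen with earlier results of these data known. Named were all probes of the adhesion genes, the called genes of each list (the 5 with the largest change where more were called), direct partners of an adhesion gene, the defining markers, and the 4 genes most like *Vcam1* and *Ncam1*. The alternatives were the deposited log2 values, no background correction, a larger offset, scaling to equal medians, other detection filters, array weights, a replicate block, an FDR under 0.01, the mean over the probes of a gene, and leaving out pools.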

Additional observations from a re-analysis of the deposited data

How the results depend on the processing

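The calls of the *Icam1*, *Icam2*, *Pecam1* and *Cd44* probes (3 higher, all of *Pecam1*, and 1 lower, of *Icam1*) held under all 17 alternatives. Counts over the whole array (1081 higher and 864 lower) moved more: with scaling to equal medians, which put the median log2 fold change at -0.21, 526 were higher and 893 lower (37.1% higher, against 55.6%), with array weights 3189 and 4120, at an FDR under 0.01 590 and 311, and without PU.1-deficient pool 2 and wild-type pool 1, an alternative chosen after seeing the data, 2837 and 2878. Leaving out 1 pool gave 603 to 1005 higher and 306 to 1112 lower. Over the 7 lists of related genes (15 higher and 7 lower), 6 were higher with equal medians, 9 were higher and 4 lower with no filter on dim probes, 22 lower with array weights, 16 lower without the pair of pools named above, and 5 higher and 1 lower at an FDR under 0.01, and leaving out 1 pool gave 4 to 12 higher and 1 to 9 lower. The replicate numbers are shared between genotypes, but same-numbered pools deviated together with correlations of 0.72, 0.61 and -0.15, and nothing in the labels pairs them. With the replicate number as a block, 1596 probes were higher and 1681 lower, with 11 lower over the lists, and the calls of the adhesion probes were the same. No result changed direction among those that passed the test. The cause of these shifts was not tested. Values near background, those of *Vcam1* and *Ncam1* in wild-type pools among them, limit the size of the fold changes.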
